A study of Homo sapiens with 2 samples.

Results

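The cornified envelope scaffold and the transglutaminases that cross-link it were examined in Ca9-22, a line from an oral squamous cell carcinoma (OSCC), carrying a lentiviral vector with the long noncoding RNA DLEU1 (DLEU1 cells) or a control vector (control cells). The members were the 10 genes IVL, LOR, PPL, EVPL, TGM1, TGM3, TGM5, CSTA, CNFN and SCEL, found by an exact match of the gene name on non-control probes, out of 43317 gene names on the array. Each member had 1 probe in 1 spot. Both populations received 6 mg/ml blasticidin for 2 weeks, as the labels give the dose, and the control vector was described in the methods as empty. Total RNA (100 ng) of each was Cy3-labelled for 1 single-colour Agilent array per vector, 2 arrays in all. No infected culture was repeated on an array, so no test, p-value or replicate error was possible, and all values below describe these 2 arrays. DLEU1 itself, read by its brightest probe, had a log2 level of 3.17 in control cells and 5.91 in DLEU1 cells, a 6.67-fold difference. Its other detected probes, which were dimmer and annotated to another DLEU1 transcript, differed by 0.85 and 0.54 on the log2 scale.

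The cornified envelope is a protein shell that forms under the plasma membrane of squamous epithelial cells late in their differentiation. Envoplakin and periplakin, plakin proteins that anchor to the membrane and to keratin filaments, are laid down early together with involucrin. Transglutaminases then join glutamine to lysine side chains between the scaffold proteins and add loricrin, sciellin, cystatin A, cornifelin and small proline-rich proteins. In oral mucosa the extent of this programme differs between keratinised and non-keratinised sites.

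The involucrin probe holds codons for glutamine and lysine, the amino acids that transglutaminases join. It covers the last 19 sense codons of IVL and the stop codon, of which 5 encode glutamine and 3 encode lysine. Whether these residues are cross-linked was not examined here. In the line below, the glutamine and lysine codons are in capitals.
IVL probe: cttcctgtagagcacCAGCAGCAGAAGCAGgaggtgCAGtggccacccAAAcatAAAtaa

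The RefSeq promoter table (GRCh38.p14) held 6 of the 10 members, namely IVL, LOR (under its current name LORICRIN), TGM3, TGM5, CNFN and SCEL. The 250 bases upstream of the start of each were searched on both strands for TGAGTCA, the letters bound by AP-1 factors, which regulate many epidermal genes. This sequence was present in 3 of the 6, those of IVL, LOR and SCEL, and in 4.2% of all 35116 promoters in the table. It began 123 bases upstream of the start of IVL, 48 bases upstream of LOR and 49 bases upstream of SCEL. The 3 sequences are shown because these genes had the largest differences or bounds among the members, with the AP-1 letters in capitals. A match describes the letters only.
IVL, chr1:152908296-152908545, plus strand: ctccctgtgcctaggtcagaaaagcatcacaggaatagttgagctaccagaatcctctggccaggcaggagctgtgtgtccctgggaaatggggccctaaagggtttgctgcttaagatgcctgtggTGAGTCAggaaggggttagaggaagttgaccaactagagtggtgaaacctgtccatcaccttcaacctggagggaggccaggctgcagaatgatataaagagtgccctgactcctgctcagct
LOR, chr1:153259437-153259686, plus strand: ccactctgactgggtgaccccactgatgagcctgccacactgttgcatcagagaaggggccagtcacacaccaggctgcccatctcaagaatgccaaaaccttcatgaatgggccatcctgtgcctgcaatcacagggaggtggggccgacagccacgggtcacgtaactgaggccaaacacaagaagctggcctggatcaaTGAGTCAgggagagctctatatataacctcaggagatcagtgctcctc
SCEL, chr13:77535456-77535705, plus strand: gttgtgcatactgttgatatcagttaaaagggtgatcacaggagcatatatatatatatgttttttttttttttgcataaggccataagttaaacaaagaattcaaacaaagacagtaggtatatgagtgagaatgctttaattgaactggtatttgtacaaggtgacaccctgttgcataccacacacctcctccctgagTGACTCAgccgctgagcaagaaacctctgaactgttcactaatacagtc

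The letters AACCNGTT, bound by grainyhead-like factors, were found upstream of TGM5 alone among the 6, against 1.49% of all promoters. The letters TATAAA were found upstream of IVL and TGM3, against 3763 of all 35116 promoters. In the IVL sequence TATAAA began 30 bases upstream of the start, apart from the AP-1 letters, and no other of the 6 held letters of more than 1 of these motifs.

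Expression was read from the processed signal, which is an intensity after subtraction of a surface fitted over the array, and from the log2 level, which is the log2 signal minus the 75th percentile of its array. A probe was called detected where the extraction software marked it well above background, and a difference of at least 2-fold was called. The dimmest detected probe had a signal of 14.2 in control cells and 14.3 in DLEU1 cells. The SD of the log2 difference between spots of the same probe was 0.0797, from 282 detected probes with replicated spots. The DLEU1 vector array had a damaged strip. Of spots well above background on the control vector array, 26.7% in the strip were at least 2-fold lower, against 12.6% elsewhere. All 10 members lay outside the strip, and the median difference of the 100 spots around each member was between 0.02 and 0.07. All 8 epithelial markers, such as KRT5 and CDH1, were detected on both arrays.

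Of the 10 members, 7 were detected on both arrays, 2 (LOR and TGM5) in DLEU1 cells alone, and TGM3 on neither array. Of the 7, all had a higher level with the DLEU1 vector, 5 of them by at least 2-fold (IVL, SCEL, TGM1, CNFN and PPL) and 0 were lower by that much. The background among the 20246 gene names detected on both arrays was 9.18% higher by 2-fold or more and 9.78% lower by as much. Among the 13239 protein-coding ones it was 9.02% and 11.4%. The median difference of the 7 members was 1.70 on the log2 scale, against -0.07 over all gene names and -0.12 over protein-coding ones. In a culture, more cells that make an RNA and more of it per cell cannot be told apart.

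**Figure D1:**
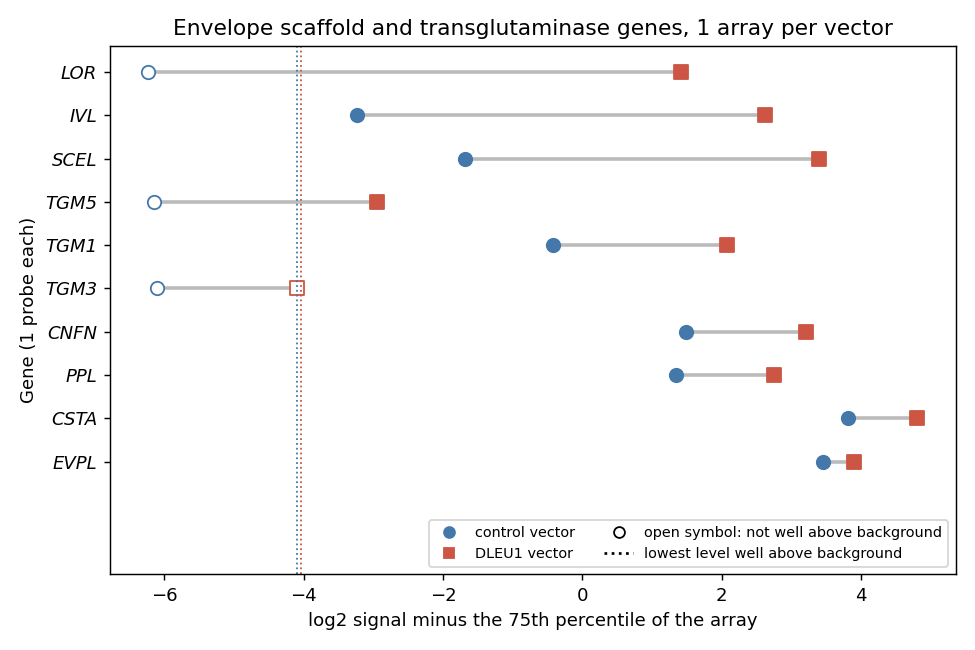
Log2 level of each member (signal minus the 75th percentile of the array) with the control vector (circles) and the DLEU1 vector (squares), 1 array each, ordered by the measured difference; open symbols were not well above background and dotted lines mark the lowest detected level of each array. LOR and TGM5 pass from open to filled, and both TGM3 symbols are open, so that the TGM3 line stands for no fold.

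Involucrin (IVL), the glutamine-rich rod protein that starts the scaffold, had the largest difference among members detected on both arrays, except with normexp, where SCEL was higher. Its probe A_23_P353524 (transcript NM_005547) lies on chromosome 1 from 152883972 to 152884031 (hg19), within the coding sequence. The signal was 25.9 in control cells and 1447 in DLEU1 cells. The log2 level was -3.23 on the first array and 2.62 on the second, a difference of 5.84 or 57.3-fold. Of all gene names detected on both arrays, 11 had a larger difference. The control signal lay close to the detection limit, and normexp, another background correction, gave a log2 difference of 3.95.

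Loricrin (LOR), the glycine-rich protein that makes up most of the mature envelope in epidermis, was read by the probe A_23_P34452 (NM_000427, chromosome 1, 153234437 to 153234496). The signal was 3.23 in control cells, not well above background, and 626 in DLEU1 cells. Against the lowest detected signal of the control vector array, LOR was at least 45.2-fold higher, which is 5.50 on the log2 scale. With normexp this log2 bound was 3.26. Among 18645 protein-coding gene names with a probe, 2.41% were detected in DLEU1 cells alone, and 1.19% also had a bound of at least 2-fold.

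Sciellin (SCEL), an envelope precursor with repeated motifs and a LIM domain, came next. The probe A_23_P500000 (NM_144777, chromosome 13, 78218564 to 78218623) gave a signal of 75.4 in control cells and 2466 in DLEU1 cells. The log2 difference was 5.07, or 33.6-fold, and 21 gene names had a larger one. It was 4.25 with normexp. IVL and SCEL differed from each other by 0.77 in their log2 differences as given, but normexp placed SCEL above IVL, so their order was not settled.

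**Figure D2:**
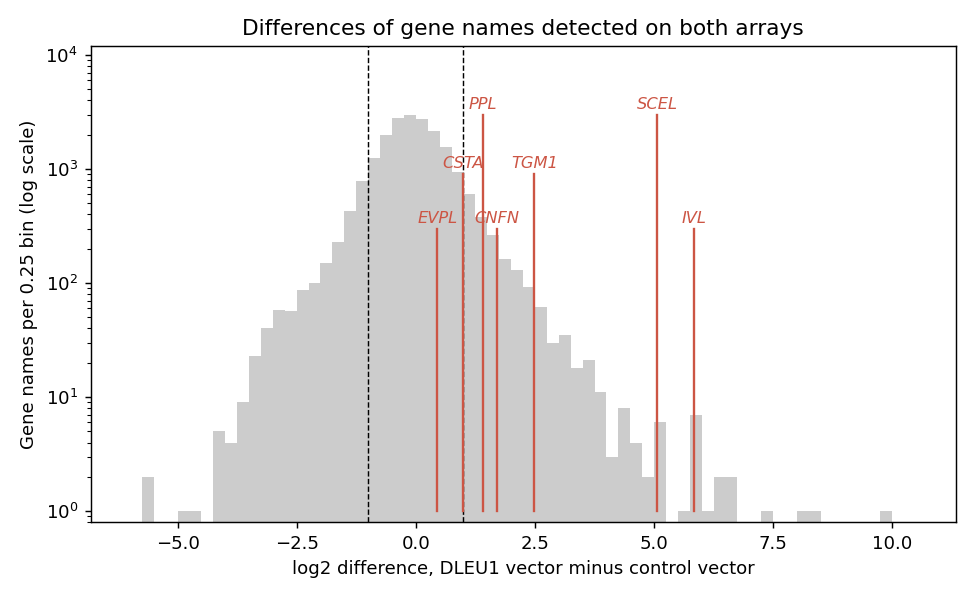
Log2 differences (DLEU1 vector minus control vector) of the 20246 gene names detected on both arrays, as a histogram with a log count axis and bins of 0.25; dashed lines mark 2-fold and the red lines the 7 members detected on both arrays, with line heights set for legibility only. IVL and SCEL lie in the far right tail, while EVPL lies inside the bulk.

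The plakin pair of the scaffold showed smaller differences. Periplakin (PPL; probe A_23_P106906, NM_002705, chromosome 16, 4933068 to 4933127) had a signal of 614 in control cells and 1589.9 in DLEU1 cells. This is a log2 difference of 1.41, or 2.66-fold, and 4.91% of gene names had a larger one. Envoplakin (EVPL; probe A_24_P104512, NM_001988, chromosome 17, 74003008 to 74003067), which pairs with periplakin, had signals of 2650.2 and 3530.2. The EVPL log2 difference was 0.45, or 1.37-fold, and 23.3% of gene names had a larger one. Both plakins were well above background on both arrays, and the PPL difference was larger by 0.96 on the log2 scale. When spike-in probes were set equal on the arrays, which moved every difference by -0.40, PPL stood at 1.01 and EVPL at 0.054.

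Cystatin A (CSTA), a cysteine protease inhibitor that is also cross-linked into the envelope, lay at the edge of the 2-fold limit. Its probe A_23_P41114 (NM_005213, chromosome 3, 122056416 to 122056475) gave signals of 3395 in control cells and 6580.2 in DLEU1 cells. The log2 difference was 0.99, or 1.99-fold. It passed 2-fold with the 75th percentile over detected probes (1.10), quantile normalization (1.20) and loess (1.21), and was 0.59 with spike-in scaling. Cornifelin (CNFN), a small envelope protein, was read by the probe A_33_P3411848 (NM_032488, chromosome 19, 42891259 to 42891318). The CNFN signal was 682 in control cells and 2162 in DLEU1 cells, a log2 difference of 1.70 or 3.26-fold.

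Among the enzymes, transglutaminase 1 (TGM1), the membrane-bound enzyme of keratinocytes, was the one detected on both arrays. The probe A_23_P65618 (NM_000359, chromosome 14, 24718451 to 24718510) gave signals of 181 in control cells and 993 in DLEU1 cells. The log2 difference was 2.49, or 5.62-fold, and 1.09% of gene names had a larger one. It was at least 2.09 under the other scalings and corrections tried.

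The other enzymes were dim. Transglutaminase 5 (TGM5; probe A_23_P129291, NM_201631, chromosome 15, 43531029 to 43531088), an epidermal enzyme with several envelope substrates, had a signal of 3.43 in control cells, not well above background, and 30.6 in DLEU1 cells. TGM5 was at least 2.21-fold higher, a log2 bound of 1.14. The bound fell short of 2-fold with spike-in scaling (0.75) and with normexp (0.34). Transglutaminase 3 (TGM3; probe A_23_P57118, NM_003245, chromosome 20, 2320506 to 2320565), a proenzyme activated by proteolysis, had signals of 3.52 and 13.9, neither well above background. No fold is given for TGM3. Its DLEU1 vector signal lay just under the dimmest detected probe of that array (14.3).

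The software's own error for a spot gave the log2 differences of the 7 members an error of 0.20 to 0.29, the largest being that of IVL. The EVPL difference of 0.45 was the smallest against this error. None of the spots of the members was marked as an outlier or saturated. Neither this error nor the spot SD holds the variation between cultures.

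**Figure D3:**
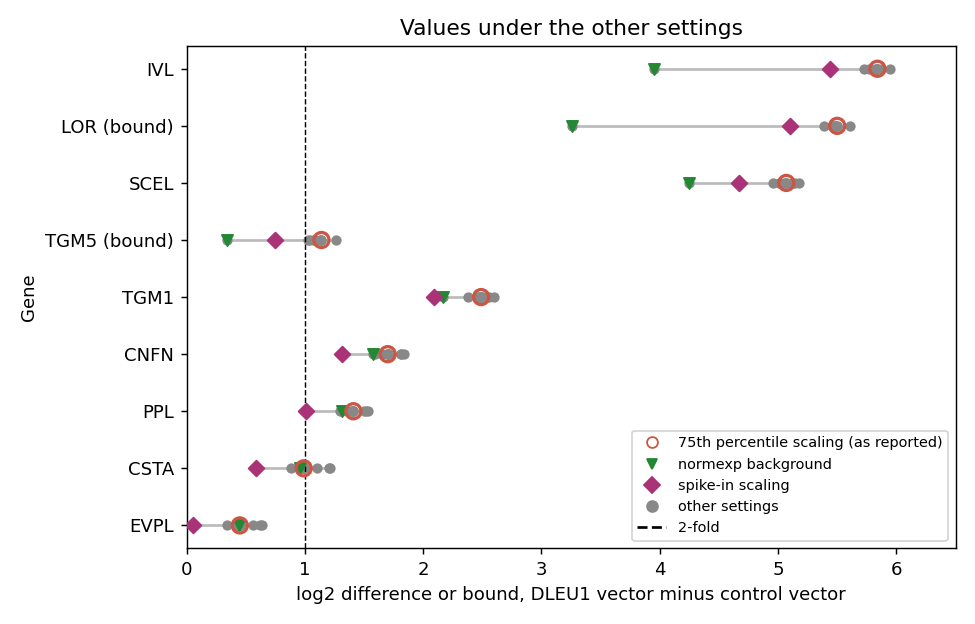
Log2 difference, or bound for LOR and TGM5, of each member under the setting reported (open red circles) and under the other scalings, background corrections and filters; the dashed line marks 2-fold. IVL ranged from 3.95 to 5.95 and SCEL from 4.25 to 5.18, CSTA and TGM5 lay on both sides of 2-fold, and no value crossed 0.

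The rest of the transglutaminase family was read to see whether the enzymes moved as a group. Of 6 further members, TGM4, TGM6, TGM7 and F13A1 were detected on neither array. Tissue transglutaminase (TGM2) was detected with the control vector only, at a log2 level of -3.38, and was at least 1.58-fold lower with the DLEU1 vector. EPB42, a family member without enzyme activity known from red cells, differed by -0.31. Of the 9 family members on the array, TGM1 was at least 2-fold higher, and TGM5 was so as a bound. TGM3, TGM4, TGM6, TGM7 and F13A1 gave no difference, and TGM2 gave a bound only. Whether the enzymes moved as a group could therefore not be read.

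Genes known to process or regulate transglutaminases were compared next. The list held 7 genes, all with a probe, and 6 were detected on both arrays. Of these, 3 were higher by 2-fold or more and 0 lower by as much, against 9.18% and 9.78% of all gene names. The median was 0.71, and it was 0.31 with spike-in scaling and 0.37 both with no filter on dim probes and where signals under 100 were left out. CST6, a cystatin that inhibits cathepsins L and V, was the highest, with log2 levels of -2.61 and -0.64 and a difference of 1.97. CTSD, the aspartic protease cathepsin D, had a difference of 1.37, and RARRES3, a known activator of TGM1, one of 1.05. CAPN1, the calpain protease, differed by 0.37 and CTSL by -0.42. CTSV was the lowest (-0.60), but its probe lay in the damaged strip, without which the median was 1.03. CTSS was not detected.

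Among 7 genes of other plakins and their partners, 2 were higher by 2-fold or more, against 9.18% of all gene names, and 0 lower by as much. Their median difference was 0.08. This median was -0.033 with median scaling and -0.32 with spike-in scaling, so its direction was not settled. EPPK1 (epiplakin) was the highest at 1.57 and PLEC (plectin) the lowest at -0.48, with its other probe at -0.81. DSP (desmoplakin), which ties keratin filaments to desmosomes, had log2 levels of 6.53 and 7.90 and a difference of 1.37. EVPLL, a shorter relative of envoplakin, had a difference of 0.85, near 0.83 at its other probe. The rest of this list did not rise in the same way, with KAZN at 0.08, DST at -0.03 and MACF1 at -0.34. Of the other cystatins, 3 of 8 with a probe were detected on both arrays, from CST5 (0.25) to CSTB (1.08), which like CSTA is an intracellular inhibitor of cysteine proteases. Their median was 0.34, and -0.058 with spike-in scaling.

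A list of genes taken as precursors cross-linked onto the scaffold, such as small proline-rich and late cornified envelope genes, was compared with the scaffold itself. Whether the product of each listed gene, DMKN among them, is cross-linked was not examined here. Of 44 such genes with a probe, 23 were detected on both arrays. Of the 23, 17 were higher by 2-fold or more and 0 lower by as much, against 9.18% and 9.78% of all gene names. The median difference of the 23 was 3.52, against 1.70 for the scaffold and enzyme genes, and the difference between the lists was not tested. Another 15 were detected in DLEU1 cells alone, 14 of them with a bound of at least 2-fold. Among protein-coding gene names with a probe, these shares were 2.41% and 1.19%. Of the remaining precursors, 1 was detected in control cells alone and 5 on neither array. The values ran from DMKN (-0.98, with its 3 detected probes between -1.32 and -0.82, so that not all lay within 2-fold) to SPRR3 (9.88), and the largest bound was that of CRCT1, at least 361-fold higher. C1orf68 went the other way and was at least 4.36-fold lower with the DLEU1 vector. Probes of SPRR2 genes may share signal, since these genes are close in sequence.

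**Figure D4:**
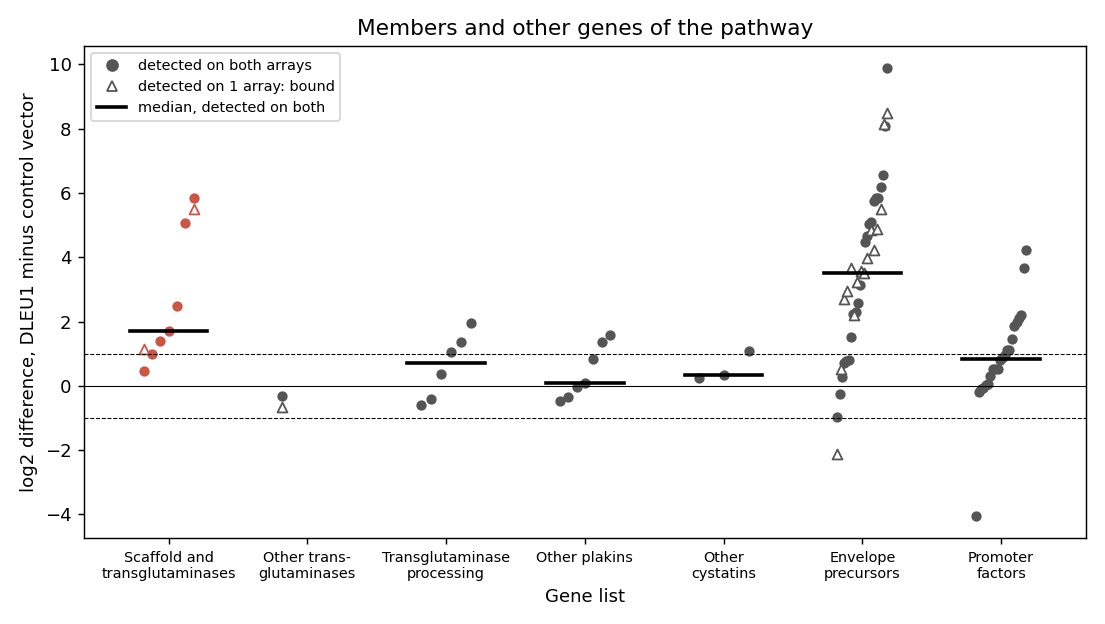
Log2 differences (DLEU1 vector minus control vector) of the members and of the other lists, with filled circles for genes detected on both arrays, open triangles for bounds of genes detected on 1 array, bars for medians over at least 3 genes and dashed lines at 2-fold. The members and the envelope precursors have their medians above 2-fold, and the other lists with a bar have theirs below it. The other transglutaminases have no bar.

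IVL and LOR lie in the epidermal differentiation complex, a cluster of late epidermal genes on chromosome 1, with 350.4 kb between their probes. Between them lay 15 other gene names that matched RefSeq. Of these, 8 were detected on both arrays and all 8 were at least 2-fold higher, against 9.18% of all gene names, with a median of 5.47. All 8 were SPRR genes, and all but SPRR2C were already counted among the precursors above, so this is not a separate result. The probes of SPRR2D differed by 2.22 and 6.56. A further 3 were detected in DLEU1 cells alone (SPRR2B, SPRR2G and PRR9) and 4 on neither array (LINC01527, SPRR4, LOC101928009 and LELP1).

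**Figure D5:**
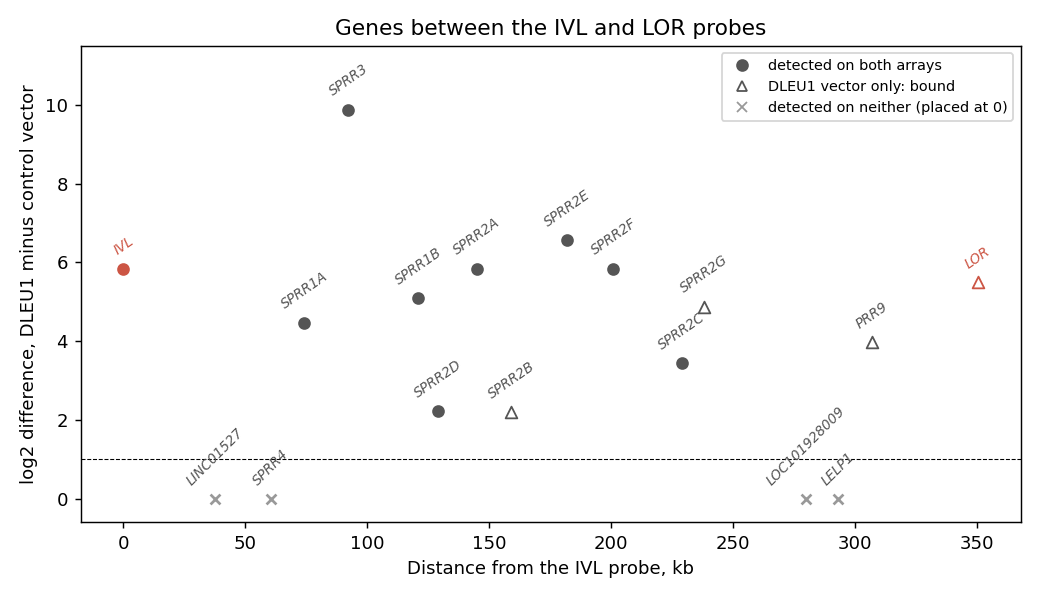
Log2 difference (DLEU1 vector minus control vector) against distance in kb from the IVL probe for IVL, LOR and the 15 gene names between them; circles were detected on both arrays, triangles are bounds, and crosses were detected on neither array and are placed at 0. All 8 circles between the red points lie above the dashed 2-fold line, up to SPRR3 at 9.88.

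The nearest gene on each side of every member was read to see whether neighbours shared these differences. The 8 members outside chromosome 1 had 16 such neighbours, and 11 of them were detected on both arrays. None of the 11 was at least 2-fold higher (0 of 11, against 9.18% of all gene names), and the median was -0.20. Over 11 genes, 0 is close to that share, so no difference from other genes can be read. The 16 neighbours included EPB42, TGM6 and TGM7, already read in the transglutaminase family above. UBN1 next to PPL differed by -0.20. CDK3 next to EVPL differed by 0.59 and TINF2 next to TGM1 by 0.29. The lowest was CCDC58 next to CSTA (-1.46). SCEL-AS1, an antisense RNA at the SCEL locus, differed by -0.42, with log2 levels of -1.79 and -2.21. Of the 4 neighbours on chromosome 1, SMCP, PRR9 and PGLYRP3 were detected in DLEU1 cells alone, with log2 bounds of 0.28, 3.97 and 0.52, and LINC01527 on neither array.

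Transcription factors known to act at envelope gene promoters were listed beside the AP-1 letters upstream of IVL, LOR and SCEL. Of 23 factors, 22 were detected on both arrays, with a median difference of 0.84. Of these, 9 were at least 2-fold higher, against 9.18% of all gene names, and 1 was lower by as much, against 9.78%. ZNF750, a regulator of late epidermal differentiation, was the highest, with log2 levels of 0.02 and 4.24 and a difference of 4.22. FOSL1, an AP-1 subunit of proliferating and migrating cells, was the lowest, with levels of 4.14 and 0.09 and a difference of -4.05. The other AP-1 subunits on the list, named here after their values were seen, were JUNB (2.21), FOSL2 (1.12), JUND (0.88), JUN (0.53), FOSB (0.53) and FOS (0.30). The grainyhead-like factors, whose family binds the letters found upstream of TGM5, were also named after their values were seen. GRHL3 had a difference of 3.66 and GRHL2 one of 0.53. GRHL1 differed by 2.00, but by 0.78 at its other probe. NFE2L2 was detected on neither array.

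Markers of other cell types were read on the same arrays. Of 6 fibroblast markers, 2 were detected in control cells and 3 in DLEU1 cells, and their summed level relative to the 75th percentile went from 1.55 to 22.4. COL1A1 made up most of this sum (log2 levels of 0.47 and 4.47), while COL1A2, COL3A1 and DCN were not well above background on either array. The 5 leukocyte markers summed to 1.49 and 1.20, the 4 melanocyte markers to 1.82 and 1.75, and the 3 endothelial markers to 0.445 and 2.75. The endothelial sum rested on VWF, whose detected probes differed by -0.07 and 3.70. The 8 epithelial markers summed to 351 and 927 but did not move together. KRT17 (3.09), KRT14 (2.85), KRT5 (2.1) and CDH1 (1.04) were at least 2-fold higher, and the CDH1 probe lay in the damaged strip. TP63 (0.96) and KRT8 (0.18) were higher by less, while EPCAM (-0.78) and KRT18 (-0.93) were lower. The part of these cell types in the member differences was not tested.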

How the data were processed

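Total RNA of 2 Ca9-22 samples was measured on SurePrint G3 Human GE v3 arrays, 1 for each vector, and groups were taken from the vector label. The authors extracted the deposited intensity values with Feature Extraction (10.7.3.1 per the file headers). Local background correction was off in the headers, the software subtracted a surface fitted over each array, detrended the signal and set a surrogate for dim spots. The authors named GeneSpring for their analysis, and the deposited files were not normalized between arrays. Probe positions are those of the deposited files (hg19), and promoters are on GRCh38.p14.

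Control spots and spots flagged as outliers (84 and 103) were left out, log2 signals were averaged over the spots of each probe, and the 75th percentile of the array (7.92 with the control vector, 7.88 with the DLEU1 vector) was subtracted. The value of a gene was its brightest probe detected on both arrays. A gene detected on 1 array only was given a bound, taken on the dim array against its own signal or the lowest detected one, whichever was higher. Of 43317 gene names, 21081 matched a RefSeq symbol and 2451 matched by accession or older symbol. No test was run. Background correction by normexp (offset 50), loess (span 0.3) and quantile normalization used limma 3.58.1. The calculation was tested on simulated data. Genes named were the members, DLEU1, the extremes of each list and neighbours of members, and a gene that this rule covers is not reported here. The members and lists were chosen with earlier results of these data known, and the strip limits after seeing the arrays. Precision is limited by the number of arrays. Exon positions of probes were not determined here, except that the IVL probe was read in frame.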

Additional observations from a re-analysis of the deposited data

How the results depend on the processing

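A total of 14 alternatives were run, and none of 82 differences of the 7 members detected on both arrays changed sign, 34 of them moving by more than the spot SD. Some of the 82 could not move. No member had further probes to average, and the filters on dim signals kept or dropped a member without changing its value. The series values also gave the same member differences to the digits given. These unchanged values say nothing on how stable the sign is. No member was at least 2-fold lower under any alternative (0 each). The causes of the shifts were not tested. Fewer or more genes enter under the filters. LOR and TGM5 in control cells and TGM3 in both were not well above background, which limits them to bounds or to no fold.

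The member median (1.70) was 1.59 with median scaling, 1.81 with quantile normalization and, equally, when the 75th percentile was taken over detected probes, 1.84 with loess, 1.31 with spike-in scaling and 1.58 with normexp. It was 2.25 with no filter on dim probes and 1.41 where signals under 100 were left out. The 5 members called higher became 8 with no filter, where dim probes entered, and 3 with a signal of at least 100, where IVL and SCEL dropped out. The other alternatives gave 4 to 6.

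List medians follow in the order transglutaminase processing, other plakins, other cystatins, precursors and promoter factors. Median scaling gave 0.60, -0.033, 0.23, 3.41 and 0.73, the 75th percentile over detected probes 0.82, 0.19, 0.45, 3.63 and 0.95, and spike-in scaling 0.31, -0.32, -0.058, 3.12 and 0.44. Quantile normalization moved processing to 0.87, cystatins to 0.57 and factors to 0.93, and loess gave 0.89, 0.58 and 0.95 for the same lists with 3.62 for precursors. Normexp gave 3.14 for precursors and 0.74 for factors. With no filter, processing was 0.37, cystatins 0.23 and precursors 4.46. With a signal of at least 100, processing was 0.37, plakins 0.41, precursors 2.91 and factors 0.96. Averaging the probes of each gene gave 0.25 for cystatins and 4.39 for precursors. Without the damaged strip, processing was 1.03. The series values, and taking off the median of the 100 nearest spots, moved no list median by more than the spot SD. No paired analysis was possible because each vector had 1 array.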
